A study of Homo sapiens with 5 samples.

Results

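Long noncoding RNAs work as RNA and are not chiefly read into protein. The 10 described here are known from prostate and other cancer cells: MALAT1, NEAT1, TUG1, KCNQ1OT1, OIP5-AS1, PVT1, PCAT1, PCA3, PCGEM1 and MEG3. They were chosen by symbol, and all 10 were found among the 26506 gene symbols of the deposited tables. RefSeq classes 9 of them as lncRNA and TUG1 as protein_coding.

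The RNA was total RNA of 22Rv1, a human prostatic carcinoma line, taken 72 hours after lentivirus was added in medium with 10% serum. There were 5 libraries, 1 per group: cells overexpressing ESM1 with the control Vector-1, and cells overexpressing ESM1-NLS or ESM1-NES with the shared control Vector-2. ESM1 encodes a proteoglycan that is normally secreted. The tags NLS and NES commonly stand for signals of nuclear localisation and of nuclear export, and the labels give only the letters; their libraries are also called "with NLS" and "with NES". The promoter of the transgene and the number of clones are not given in the sources used here.

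MALAT1 is kept in nuclear speckles, and the long form of NEAT1 builds paraspeckles, nuclear bodies that hold RNA-binding proteins. The full-length forms of both lack an ordinary poly(A) tail: RNase P cuts them, and a triple helix of U-rich and A-rich stretches protects the end. TUG1 has nuclear and cytoplasmic copies. KCNQ1OT1 is an unspliced antisense RNA, made from the paternal allele, that silences an imprinted domain. OIP5-AS1, also called cyrano, pairs extensively with the microRNA miR-7 and promotes its decay. PVT1 lies next to MYC, PCA3 is antisense to PRUNE2 and a urine marker of prostate cancer, PCGEM1 and PCAT1 are prostate transcripts, and MEG3 is made from the maternal allele beside DLK1.

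The triple-helix ends of MALAT1 and NEAT1 are shown because RNA without a poly(A) tail is measured only as far as a library preparation captures it, and the sources used here do not say whether poly(A) RNA was selected. They lie at chr11:65506029-65506116 and chr11:65445453-65445540 on the plus strand of GRCh38, each in the single exon of the longest GENCODE 29 transcript. Each stretch is 88 bases long, and capitals mark the U-rich stretches and the A-rich tract, written as DNA.
MALAT1 end: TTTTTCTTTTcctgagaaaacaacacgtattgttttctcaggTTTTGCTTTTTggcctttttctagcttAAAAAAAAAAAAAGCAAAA
NEAT1 end: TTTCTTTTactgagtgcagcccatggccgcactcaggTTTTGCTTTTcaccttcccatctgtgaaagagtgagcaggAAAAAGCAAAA
The order of the stretches is the same in both, with an A-rich tract of 19 bases in MALAT1 and 11 bases in NEAT1. The effective length behind the deposited values was 8697 bases for MALAT1, near the 8708 bases of its longest transcript. For NEAT1 it was 3678 bases, far below the 22743 bases of the long form, which the values do not separate from the short one.

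A site in OIP5-AS1 with a match to the miR-7 seed is shown beside hsa-miR-7-5p (RefSeq, GRCh38.p14), with the seed, bases 2 to 8, and its match in capitals. The site is at chr15:41300575-41300599 on the plus strand of GRCh38, in exon 4 of 4 of a GENCODE 29 transcript of 8829 bases that holds 3 copies of the match.
hsa-miR-7-5p: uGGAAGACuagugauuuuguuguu
OIP5-AS1 site: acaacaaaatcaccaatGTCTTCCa
The effective length of OIP5-AS1 was 1822 bases, well below that transcript, so the site itself need not lie in the models that were counted. The level of miR-7 was not analysed here.

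Depth, as summed expected counts, was 19975113 with NLS, 18447256 with NES and 24322216 in Vector-2, and was estimated at 13990000 reads for ESM1 and 15290000 for Vector-1. Levels are in FPKM, fragments scaled by transcript length and library size. The ESM1 gene stood at 2437 FPKM in its own library, 2627 FPKM with NLS and 3431 FPKM with NES, and was listed at 0 in both vectors. All 9 prostate luminal markers reached 1 FPKM in every library. Summed levels were 0.04 to 0.09 FPKM for 6 endothelial markers, 3.37 to 4.70 FPKM for 6 fibroblast markers and 1.91 to 3.06 FPKM for 6 leukocyte markers, with CDH5, KDR and MS4A1 at 0 throughout. CD68, the highest leukocyte marker, read 2.22 FPKM with NLS, 1.89 FPKM with NES and 1.20 FPKM in Vector-2. PTPRC, of the same list, went the other way, at 0.45 FPKM with NLS, 0.13 FPKM with NES and 0.50 FPKM in Vector-2. The part of these markers in the results was not tested. Each group is 1 library, so differences carry no p-value and no estimate of replicate error. In bulk samples fewer cells with an RNA and less RNA per cell cannot be told apart. Bounds in parentheses are 95% exact intervals for counting error alone. The sources used here do not say whether the libraries keep strand, and reads of KCNQ1OT1 and KCNQ1, PCA3 and PRUNE2, or OIP5-AS1 and OIP5 cannot be told apart where the genes overlap.

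Of the 10 RNAs, 6 reached 1 FPKM in every library, and the same 6 passed the filter of a mean of 1 FPKM in every comparison. TUG1 was the highest beyond counting error in 3 libraries, with 44.97 FPKM in ESM1, 33.9 in ESM1-NES and 45.5 in Vector-2. In Vector-1 its 47.7 FPKM (46.5 to 49.02) overlapped the 44.9 FPKM (42.5 to 47.5) of OIP5-AS1. In ESM1-NLS its 42.7 FPKM (41.7 to 43.8) and the 43.00 FPKM (41.5 to 44.5) of NEAT1 could not be ordered beyond counting error. OIP5-AS1 and NEAT1 likewise overlapped in Vector-2, at 36.8 FPKM (35.01 to 38.6) and 35.7 FPKM (34.4 to 36.9). In ESM1-NES their levels of 24.2 FPKM (22.5 to 25.9) and 25.95 FPKM (24.8 to 27.2) overlapped as well.

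MALAT1 and NEAT1 overlapped in Vector-1, at 19.5 FPKM (18.7 to 20.2) and 18.7 FPKM (17.6 to 19.9). PVT1 and KCNQ1OT1 were the lowest of the 6 in every library. Among all listed genes, TUG1 was higher than 90.3% to 93.3% and MALAT1 higher than 79.7% to 85.4%, depending on the library. KCNQ1OT1 had the lowest level per length of the 6 yet 3419 reads with NLS, 2459 with NES and 5413 in Vector-2, over an effective length of 91969 bases. The reads of all 10 made up 0.0667% of the library in ESM1-NES, the lowest share, and 0.0973% in Vector-2, the highest.

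**Figure D1:**
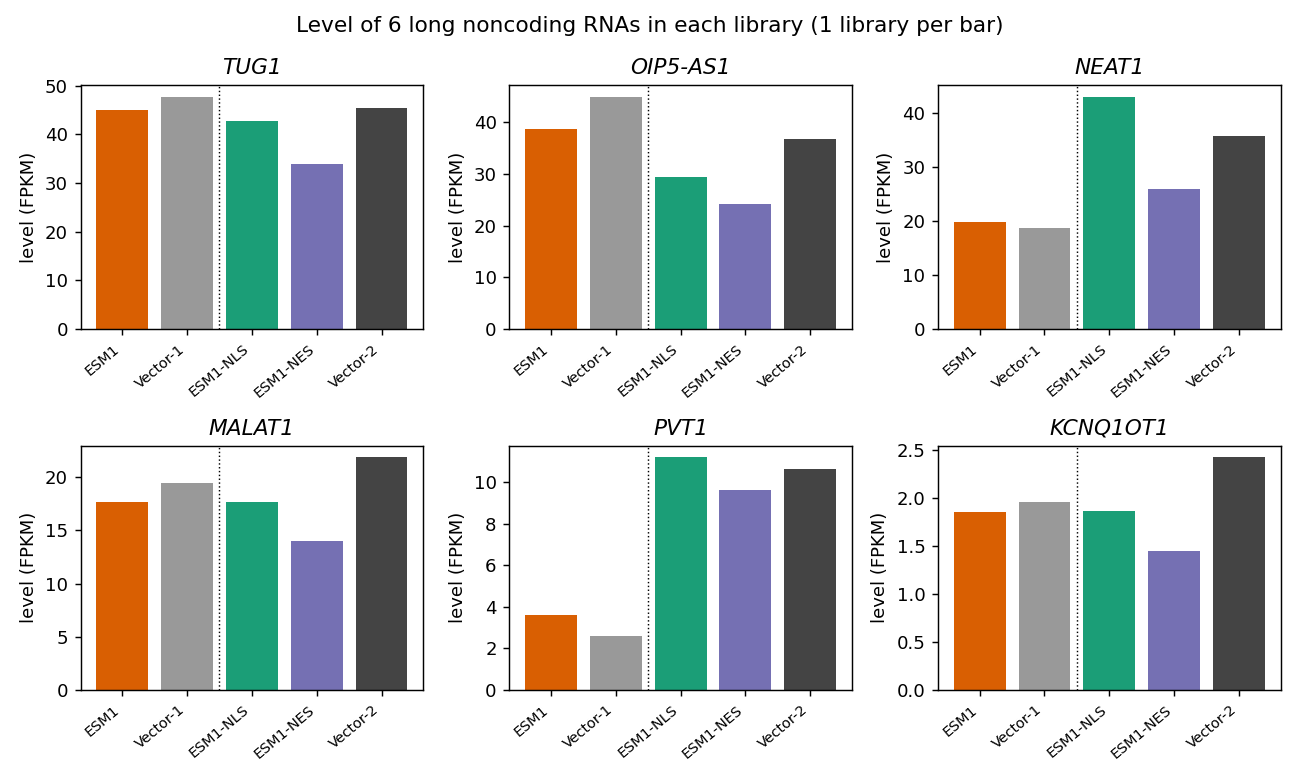
Level in FPKM (vertical axes, each from 0) of 6 long noncoding RNAs, 1 bar per library, with a dotted line between the tables that were normalised separately. Within the second table the ESM1-NES bar is the lowest in every panel, and NEAT1 and PVT1 are lower in both libraries of the first table than in the 3 of the second.

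All 6 expressed RNAs were lower in ESM1-NES than in Vector-2, which sets the form with the export tag beside its control. MALAT1 measured 14.04 FPKM in ESM1-NES, against 21.9 FPKM for the vector, giving a ratio of 0.642 (0.610 to 0.676). OIP5-AS1 measured 24.2 FPKM with NES against 36.8 in Vector-2, for a ratio of 0.657 (0.603 to 0.716), and the imprinted KCNQ1OT1 had 1.45 FPKM with NES against 2.42 in Vector-2, for a ratio of 0.599 (0.571 to 0.629). For 5 of the 6 the interval lay below 1. Of all genes that passed the filter, 53.9% were lower in this comparison. How many of those had an interval below 1 was not counted.

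NEAT1 had 25.95 FPKM in ESM1-NES beside 35.7 for the vector, with a ratio of 0.728 (0.686 to 0.771). TUG1 had 33.9 FPKM with NES beside 45.5 in Vector-2, with a ratio of 0.745 (0.718 to 0.772). PVT1 had 9.65 FPKM with NES beside 10.7 in Vector-2, with a ratio of 0.904 (0.784 to 1.04), and a difference was not detectable at this depth. On the scale of log2(FPKM + 1), which understates changes of low genes, the 6 differences ran between -0.60 for MALAT1 and -0.13 for PVT1. Over the 6 RNAs that passed the filter the median difference was -0.46, with 6 lower. Over 12902 genes that passed it the median was -0.03, and over 492 RefSeq lncRNA genes it was -0.05 with 58.7% lower. Over all 10 RNAs, unfiltered, it was -0.31, with 9 lower and 1 equal. Of these, PCAT1, PCA3 and PCGEM1 were lower on at most 22 reads.

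Past 1.5-fold on this scale, 2 of the 6 that passed the filter were lower, MALAT1 and OIP5-AS1, and 0 were higher. The background was 2.16% of genes lower and 0.388% higher. Both lay at the edge of the limit, MALAT1 at -0.60 and OIP5-AS1 at -0.59. Of 7 alternatives, MALAT1 stayed past the limit in 4 and OIP5-AS1 in 5; MALAT1 was at -0.50 with a pseudocount of 5, -0.20 less its length-class median and -0.40 less its GC-class median. OIP5-AS1 was at -0.52 with a pseudocount of 5 and -0.38 less its GC-class median. KCNQ1OT1, at -0.48, was not past the limit but was in 3 of 7 alternatives. It was at -0.70 with a pseudocount of 0.1, -0.66 with TPM and -0.74 with counts scaled to library size. Less its length-class median it was at -0.08. In the authors' deposited table the fold changes of ESM1-NES over Vector-2 were 0.666 for MALAT1, 0.680 for OIP5-AS1 and 0.621 for KCNQ1OT1. The authors' deposited table also gives a score, PPEE, the name EBSeq uses for a posterior probability of equal expression. In the authors' deposited table the lowest PPEE among the 10 was 0.664, for KCNQ1OT1, while 0.578% of scored genes were below 0.05.

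**Figure D2:**
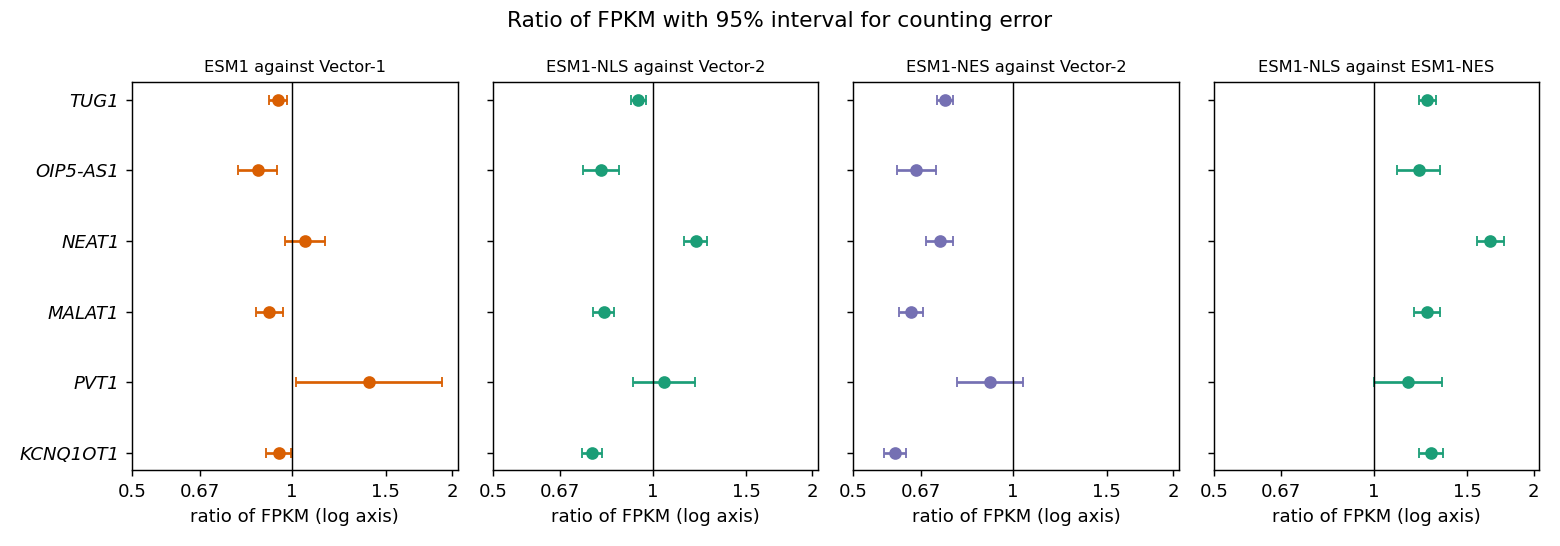
Ratio of FPKM (horizontal log axes) for 6 long noncoding RNAs in 4 comparisons, each of 1 library with 1 other; bars are 95% intervals for counting error. In ESM1-NES against Vector-2 the points lie between 0.599 and 0.904, and between the tagged forms they lie between 1.16 and 1.66, with NEAT1 farthest out.

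Transcript length and GC content moved with this comparison across protein-coding genes. The 571 genes longer than 8000 bases had a median difference of -0.40, and the 2557 genes of 1000 to 2000 bases one of 0.12. Genes with 38 to 42% GC had a median of -0.21, and those above 54% GC one of 0.18. MALAT1 lay 0.20 below the median of its length class, where 15.9% of genes were lower still. KCNQ1OT1 lay 0.08 below the median of the same class, with 33.1% lower, and TUG1 0.21 below that of 4000 to 8000 bases, with 11.1% lower.

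By length class, OIP5-AS1 and NEAT1 lay farther out. These classes use effective length, 1822 bases for OIP5-AS1 and 3678 for NEAT1, while GC classes use the longest transcript, of 8829 and 22743 bases. For the class over 8000 bases the median was -0.40, beside -0.59 for OIP5-AS1 and -0.44 for NEAT1. Their place by length thus depends on the class assigned. OIP5-AS1 lay 0.71 below its class median, with 0.821% of 2557 genes lower. NEAT1 lay 0.43 below that of 2000 to 4000 bases, with 1.88% of 4781 genes lower. By GC class they did not stand apart from the rest. There the shares of genes lower were 3.83% for MALAT1, 4.22% for OIP5-AS1, 5.01% for KCNQ1OT1, 7.25% for NEAT1, 8.84% for TUG1 and 20.8% for PVT1. The part of length and GC content in these differences was not tested beyond these values.

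**Figure D3:**
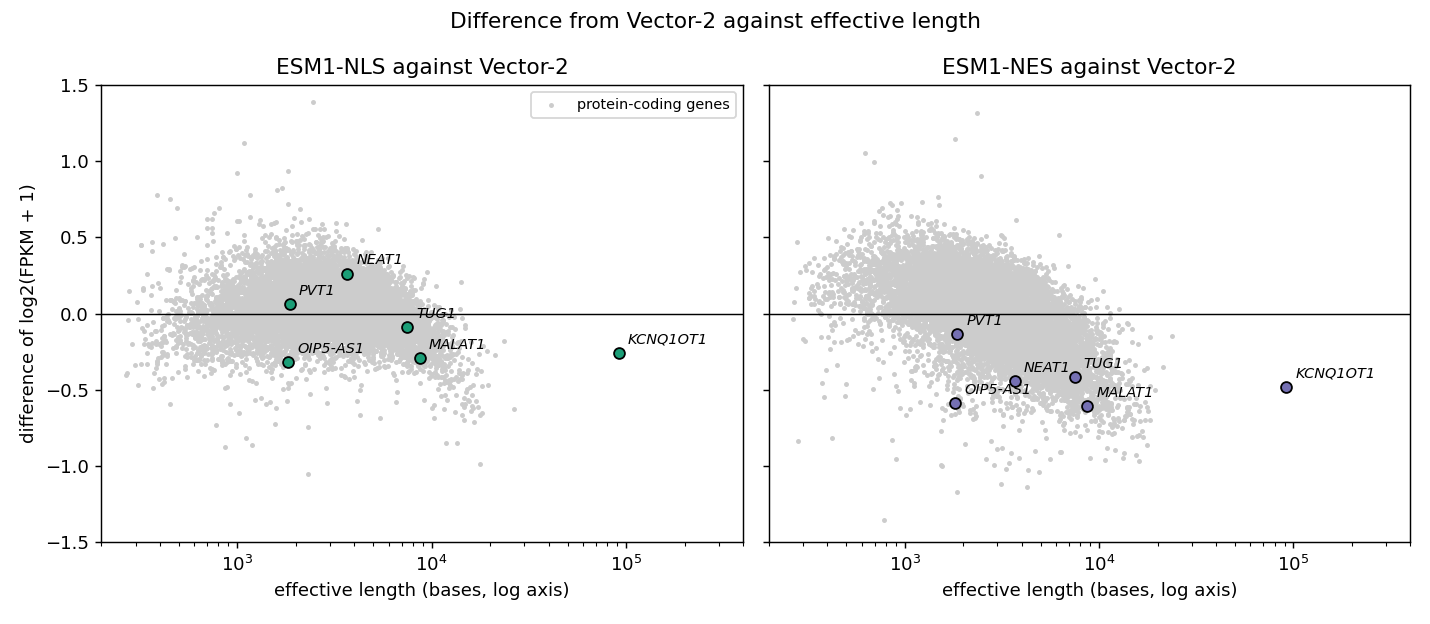
Difference of log2(FPKM + 1) from Vector-2 (vertical axis) against effective length in bases (horizontal log axis) for protein-coding genes in grey and 6 long noncoding RNAs in colour, in ESM1-NLS and in ESM1-NES. OIP5-AS1 at -0.59 and NEAT1 at -0.44 lie below most genes of their effective length in ESM1-NES, which is below that of their longest transcripts. NEAT1 lies above 0 in ESM1-NLS at 0.26. Genes past 1.5 on either side are not drawn.

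NEAT1 was the 1 RNA of the 6 whose interval lay above 1 in ESM1-NLS, set against the same Vector-2 library. It measured 43.00 FPKM in ESM1-NLS, against 35.7 FPKM for the vector, giving a ratio of 1.21 (1.15 to 1.27). MALAT1 had 17.7 FPKM with NLS against 21.9 in Vector-2, for a ratio of 0.809 (0.772 to 0.847). OIP5-AS1 had 29.4 FPKM with NLS against 36.8 in Vector-2, for a ratio of 0.798 (0.738 to 0.863). The intervals of MALAT1, OIP5-AS1, KCNQ1OT1 and TUG1 lay below 1. Of all genes that passed the filter, 45.5% were lower here, and the number with an interval clear of 1 was not counted.

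KCNQ1OT1 had 1.86 FPKM in ESM1-NLS beside 2.42 for the vector, with a ratio of 0.769 (0.736 to 0.802). TUG1 had 42.7 FPKM with NLS beside 45.5 in Vector-2, with a ratio of 0.940 (0.909 to 0.971). For PVT1, with 11.2 FPKM with NLS beside 10.7 in Vector-2 and a ratio of 1.05 (0.920 to 1.20), a difference was not detectable at this depth. Past 1.5-fold were 0 of the 6 that passed the filter. The background was 0.369% of genes higher and 0.5% lower. The median over the 6 was -0.17 with 4 lower, beside 0.02 over 13000 genes that passed the filter. Over all 10, unfiltered, it was -0.06 with 6 lower.

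Of the protein-coding genes of its length class, 91.4% lay below NEAT1 in this comparison, and of its GC class 98.6%. The share that lay below OIP5-AS1 was 1.60% of its length class and 3.69% of its GC class. For MALAT1 it was 23.1% by length and 5.00% by GC, and for KCNQ1OT1 30.9% and 5.76%. The authors' deposited table gave fold changes of ESM1-NLS over Vector-2 of 1.19 for NEAT1, 0.798 for MALAT1 and 0.786 for OIP5-AS1. Its lowest PPEE among the 10, in the authors' deposited table, was 0.895, with 0.592% of scored genes below 0.05.

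Among the 6 RNAs the tagged forms differed most in NEAT1 when set directly against each other, a comparison that shares its libraries with those above. NEAT1 measured 43.00 FPKM with NLS, against 25.95 FPKM with NES, a ratio of 1.66 (1.56 to 1.76). Of the 6 RNAs it was the 1 past 1.5-fold, higher with NLS, where the background was 0.774% of genes higher and 0.356% lower. Its difference of 0.71 was above that of 99.8% of 4793 genes of its length class and 99.7% of its GC class.

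The other 5 were also higher in ESM1-NLS than in ESM1-NES. So were 8037 of the 12915 genes that passed the filter there, with a median difference of 0.06. Of 496 RefSeq lncRNA genes 261 were higher, with a median of 0.01, beside a median of 0.29 over the 6. MALAT1 had a ratio of 1.26 (1.19 to 1.33), TUG1 one of 1.26 (1.21 to 1.31) and KCNQ1OT1 one of 1.28 (1.22 to 1.35). OIP5-AS1 had a ratio of 1.21 (1.11 to 1.33) and PVT1 one of 1.16 (1.003 to 1.35). In shares of the length class and of the GC class that lay lower, OIP5-AS1 had 95.1% and 75.1%, PVT1 had 92.04% and 83.8%, TUG1 had 85.6% and 90.5%, MALAT1 had 79.04% and 82.1%, and KCNQ1OT1 had 54.7% and 74.3%. Within a library the ratio of NEAT1 to MALAT1 was 2.43 with NLS, 1.85 with NES and 1.63 in Vector-2, and in the other table it was 1.12 in ESM1 and 0.962 in Vector-1.

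Where ESM1 without a tag was set against Vector-1, the differences of log2(FPKM + 1) of the 6 ran from -0.21 for OIP5-AS1 to 0.36 for PVT1. PVT1 measured 3.63 FPKM in ESM1, against 2.60 FPKM for its vector, giving a ratio of 1.40 (1.02 to 1.92) on about 95 and 74 estimated reads. OIP5-AS1 had 38.7 FPKM in ESM1 and 44.9 in Vector-1, for a ratio of 0.862 (0.792 to 0.937), and MALAT1 17.7 FPKM in ESM1 and 19.5 in Vector-1, for a ratio of 0.907 (0.856 to 0.961). The interval of PVT1 barely left 1, and those of OIP5-AS1 and MALAT1 lay below it. PVT1 was above 92.04% of its length class and 96.8% of its GC class. For OIP5-AS1 the shares lower were 6.74% and 11.5%, and for MALAT1 38.2% and 24.9%.

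TUG1 had 44.97 FPKM in ESM1 beside 47.7 in its vector, with a ratio of 0.942 (0.906 to 0.980). KCNQ1OT1 had 1.85 FPKM in ESM1 beside 1.96 in Vector-1, with a ratio of 0.944 (0.893 to 0.997). For NEAT1, with 19.8 FPKM in ESM1 beside 18.7 in Vector-1 and a ratio of 1.06 (0.970 to 1.16), a difference was not detectable at this depth. Past 1.5-fold were 0 of the 6 that passed the filter here too. The background was 1.19% higher and 0.325% lower. The median over the 6 was -0.07, with 2 higher and 4 lower, beside 0.01 over 12296 genes that passed the filter. Over all 10, unfiltered, it was -0.03, with 3 higher and 5 lower.

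PVT1 and NEAT1 differed more between the vectors than between any form and its vector, across tables that were normalised separately. PVT1 measured 2.60 FPKM in Vector-1, against 10.7 FPKM for Vector-2, giving a ratio of 0.244 (0.188 to 0.312). NEAT1 had 18.7 FPKM in Vector-1 and 35.7 in Vector-2, for a ratio of 0.525 (0.489 to 0.563). Of the 6 that passed the filter, these 2 were past 1.5-fold lower and 0 past it higher. The background was 14.3% of genes lower and 4.91% higher in Vector-1. Across the vectors the 461 RefSeq lncRNA genes that passed the filter had a median of -0.35, beside -0.10 over all 12685 genes that passed it.

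With Vector-2 in place of Vector-1, the differences in ESM1 turned for 3 RNAs, to -1.33 for PVT1, -0.82 for NEAT1 and 0.07 for OIP5-AS1. Against Vector-1 they were 0.36, 0.08 and -0.21.

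The remaining 4 RNAs were scarcely detected. PCAT1 had 0.50 FPKM with NLS, 0.28 with NES and 0.47 in Vector-2, and 0.31 in ESM1 and 0.42 in Vector-1. Its ratio of 0.596 (0.252 to 1.31) in ESM1-NES over Vector-2 rests on 10 and 22 reads and does not separate the libraries. PCA3 had 5 reads with NLS, 7 with NES and 11 in Vector-2, about 1 in ESM1, and was listed at 0 in Vector-1. PCGEM1 had 1 read in Vector-2 and MEG3 1 read in ESM1-NLS, and each was listed at 0 in the other 4 libraries. A count of 0 allows up to 3 reads, which for PCGEM1 is 0.119 FPKM in ESM1-NES.

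**Figure D4:**
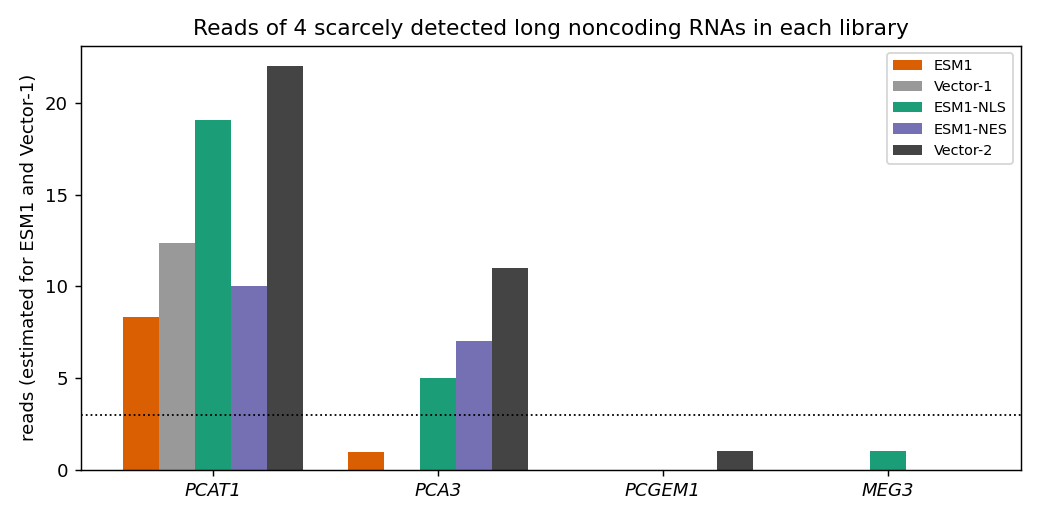
Reads (vertical axis; estimated for ESM1 and Vector-1) of PCAT1, PCA3, PCGEM1 and MEG3 in each of 5 libraries, with a dotted line at the floor of 3 reads. PCAT1 lies above the floor in every library with at most 22 reads, PCA3 lies above it in the second table, and PCGEM1 and MEG3 lie above it in none.

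Genes beside these RNAs had ratios on both sides of 1. MYC, the oncogene next to PVT1, had a ratio of 0.990 (0.939 to 1.05) for ESM1, 1.14 (1.10 to 1.18) for ESM1-NLS and 1.14 (1.10 to 1.18) for ESM1-NES, each over its own vector. OIP5, a centromere protein gene and the antisense partner of OIP5-AS1, had ratios of 1.02 (0.888 to 1.16), 0.828 (0.726 to 0.943) and 0.977 (0.860 to 1.11) in the same order. KCNQ1, a potassium channel gene that holds KCNQ1OT1, had 0.58 FPKM in ESM1 beside 1.11 for its vector, a ratio of 0.523 (0.308 to 0.865). Its ratios over Vector-2 were 1.03 (0.662 to 1.60) with NLS and 1.41 (0.931 to 2.14) with NES, which do not separate the libraries.

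PRUNE2, the host of PCA3, had 6.32 FPKM with NLS, 7.17 with NES and 10.3 in Vector-2. Its ratios over the vector were 0.614 (0.577 to 0.653) with NLS and 0.697 (0.653 to 0.744) with NES, over an effective length of 11522 bases. Protein-coding genes over 8000 bases had median differences of -0.18 with NLS and -0.40 with NES, beside -0.63 and -0.47 for PRUNE2. The part of length was not tested. In ESM1 PRUNE2 had 3.35 FPKM beside 2.57 for its vector, a ratio of 1.30 (1.15 to 1.48). CDKN1C, a cell cycle inhibitor of the domain that KCNQ1OT1 silences, had a ratio of 0.599 (0.379 to 0.931) for ESM1 over Vector-1. Over Vector-2 its ratios were 1.02 (0.833 to 1.24) with NLS and 0.814 (0.654 to 1.01) with NES, which do not separate the libraries. DLK1 was listed at 0 in every library. Of 14 neighbour and host genes 11 passed the filter. On the scale of log2(FPKM + 1), 1 was past 1.5-fold over a vector, PRUNE2 at -0.63 in ESM1-NLS. The background there was 0.5% of genes lower. CDKN1C, at -0.47 in ESM1, was not past the limit on that scale, which understates changes of low genes.

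Counts of lower genes in the lists that follow stand beside 46.9% of all genes lower in ESM1, 45.5% with NLS and 53.9% with NES, among those that passed the filter. Of 12 genes for paraspeckle proteins, 9 were lower in ESM1, 5 with NLS and 8 with NES, each beside its vector, with medians of -0.13, 0.01 and -0.10. SFPQ, an RNA-binding protein that paraspeckles need, had 170.4 FPKM in ESM1 beside 231.4 for its vector, a ratio of 0.736 (0.714 to 0.759). Its partner PSPC1 had a ratio of 0.740 (0.695 to 0.789) there, and RBM14, another paraspeckle protein, was higher with a ratio of 1.29 (1.20 to 1.39). NONO, of the same family as SFPQ and PSPC1 and chosen after its values were seen, had 177.9 FPKM with NLS, 177.8 with NES and 177.9 in Vector-2.

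Of 12 genes for nuclear speckle proteins, 9 were lower in ESM1, 8 with NLS and 8 with NES, with medians of -0.16, -0.01 and -0.10. SRRM2, a speckle scaffold, had a ratio of 0.801 (0.778 to 0.825) with NLS, and the splicing factor SRSF2 one of 0.817 (0.788 to 0.847) in ESM1. On the lists of paraspeckle and speckle proteins 0 genes were past 1.5-fold over a vector.

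Of 12 genes for RNase P, RNase Z and binding of the triple helix, 5 were lower in ESM1, 8 with NLS and 6 with NES. POP7, an RNase P subunit, had 79.1 FPKM in ESM1-NES beside 60.1 for its vector, a ratio of 1.32 (1.22 to 1.42). The large subunit POP1 had one of 0.803 (0.718 to 0.897). Their effective lengths were 857 and 4676 bases. In that comparison protein-coding genes up to 1000 bases had a median difference of 0.20, and those of 4000 to 8000 bases one of -0.20. The part of length was not tested. Of 10 genes for nuclear RNA decay, 6 were lower in ESM1, 4 with NLS and 8 with NES. ZFC3H1, which directs polyadenylated nuclear RNA to the exosome, had a ratio of 0.698 (0.637 to 0.764) with NES. On the lists of RNase P and decay genes 0 were past 1.5-fold over a vector.

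Genes whose 3 differences from their own vectors lay nearest to each RNA, by Euclidean distance, were taken from 9196 genes whose mean reached 5 FPKM. Nearest to MALAT1 was JMJD1C, at a distance of 0.0361 and with an effective length of 8659 bases, close to its own. TUG1 had SIK2 nearest, at 0.0163, and KCNQ1OT1 had KNTC1, at 0.0143. OIP5-AS1 had MTR nearest, at 0.0338, although the effective length of MTR is 10508 bases. NEAT1 had SRGAP2C at 0.0529, a gene with near-identical copies, and then LUC7L2 at 0.132. These distances rest on 3 differences, of which the NLS and NES ones share Vector-2, and are a description only.

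The promoters of MALAT1, TUG1 and OIP5-AS1, which were all lower with NES, are shown from RefSeq (GRCh38.p14), 250 bases before to 50 after the start; the table matched 6 of the 10 RNAs. RefSeq also gives a downstream start for MALAT1, which is not shown. They lie at chr11:65497488-65497787, chr22:30969015-30969314 and chr15:41283740-41284039 on the plus strand. Capitals mark matches on either strand to the E-box CACGTG, the CCAAT box CCAAT or the GC box GGGCGG.
MALAT1 promoter: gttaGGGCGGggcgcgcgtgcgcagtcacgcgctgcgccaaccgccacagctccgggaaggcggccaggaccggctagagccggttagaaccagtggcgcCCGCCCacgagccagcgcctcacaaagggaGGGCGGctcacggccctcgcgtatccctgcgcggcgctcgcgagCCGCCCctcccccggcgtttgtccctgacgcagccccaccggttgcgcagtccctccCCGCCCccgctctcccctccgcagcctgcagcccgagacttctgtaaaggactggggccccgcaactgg
TUG1 promoter: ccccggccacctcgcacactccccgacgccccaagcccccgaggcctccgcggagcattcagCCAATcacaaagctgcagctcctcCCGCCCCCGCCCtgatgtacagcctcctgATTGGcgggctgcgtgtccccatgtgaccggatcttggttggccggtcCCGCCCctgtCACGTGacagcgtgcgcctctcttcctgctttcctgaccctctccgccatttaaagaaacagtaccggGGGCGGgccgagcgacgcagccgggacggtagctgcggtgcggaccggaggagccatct
OIP5-AS1 promoter: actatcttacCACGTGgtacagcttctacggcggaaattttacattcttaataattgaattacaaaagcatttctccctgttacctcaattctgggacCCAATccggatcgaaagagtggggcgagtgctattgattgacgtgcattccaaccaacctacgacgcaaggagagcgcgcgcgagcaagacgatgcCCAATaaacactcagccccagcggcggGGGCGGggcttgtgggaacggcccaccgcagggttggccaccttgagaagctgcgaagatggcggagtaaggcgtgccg
The GC box was found 5 times in MALAT1, 4 times in TUG1 and 1 time in OIP5-AS1, and 45% of 35116 RefSeq windows hold it. TUG1 and OIP5-AS1 each had 2 CCAAT boxes, which 34.6% of windows hold, and 1 E-box, which 7.26% hold, and MALAT1 had 0 of either. The TCF/LEF word CTTTGAT, searched because the study's title names β-catenin, had 0 matches in the 3 windows and is held by 2.62%. GC content was 73.7% in MALAT1, 67.7% in TUG1 and 54.3% in OIP5-AS1, beside a median of 58.7%. Matches are letters in these windows and say nothing of binding.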

How the data were processed

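The 2 deposited tables list 26506 gene symbols without coordinates, for 5 libraries grouped by sample title. The submitters' processing notes name Trimmomatic, Bowtie2, RSEM and hg19; versions are not given in the sources used here. One table holds expected counts, TPM and FPKM made by the authors, per the file headers, with the authors' fold change, a ratio of form over vector, and their PPEE score. The other names no unit. Its deposited values were taken as FPKM: column totals differ, and 83.1% of 71 low values in ESM1 and 83.6% of 73 in Vector-1 fell 0.15 reads or less away from whole reads at the depth estimated by that criterion. Because the depth was fitted to that share, the share alone cannot tell FPKM from TPM.

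Differences are of log2(FPKM + 1), computed here between single libraries. Calls used genes whose mean reached 1 FPKM. Ratio intervals are Clopper-Pearson on reads, with expected counts rounded, and level intervals are exact Poisson. They cover counting error only. Effective length was derived from counts and FPKM. RefSeq matched 25368 symbols and GENCODE 29 23938. Both are on GRCh38, so sequences and GC content come from a later build than the counts. Genes named were all members, up to 4 per list by size of difference, neighbours and nearest patterns. Members and lists were chosen with earlier results of these data known. The calculations were tested on simulated data. Tools were Python 3.11.15, pandas 2.3.3, numpy 2.4.6, scipy 1.17.1 and matplotlib 3.10.9. Alternatives varied the pseudocount, filter, fold limit, scaling, unit, control and centring on length classes. Centring on GC classes was added after the data were seen. One gene and the list built on it are not reported here.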

Additional observations from a re-analysis of the deposited data

Results flagged for a closer look

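NEAT1 lay on opposite sides of Vector-2 with the tags. Its ratio was 1.21 in ESM1-NLS and 0.728 in ESM1-NES, each with a counting interval that does not reach 1. Each form is 1 library, both are set against the same vector library, and the difference between them was not tested.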

How the results depend on the processing

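No paired analysis was possible because each group has 1 library, and for the same reason no library could be left out. Of 162 values of the 6 expressed RNAs under alternatives, 115 stayed inside the counting interval, 44 moved out of it and 3 changed sign with an interval that had excluded 1: PVT1 at -1.33 and OIP5-AS1 at 0.0726 in ESM1 with Vector-2 as control, and KCNQ1OT1 at 0.0372 in ESM1 less its length-class median. NEAT1 in ESM1, whose interval held 1, lay at -0.82 with that other control. In ESM1-NES, over 7 alternatives, MALAT1 ranged over -0.74 to -0.20 and was past 1.5-fold in 4, OIP5-AS1 over -0.71 to -0.38 and in 5, and KCNQ1OT1 over -0.74 to -0.08 and in 3. NEAT1 between the forms ranged over 0.59 to 0.85 and was past it in 7. TPM shifted the median of all genes by -0.12 for ESM1-NES over Vector-2 and by 0.13 between the forms. Of the 10 RNAs, 8 were lower in ESM1 with Vector-2 as control, beside 5, and between the forms 3 were lower after centring on GC classes, beside 1. Those 3 were PCA3, PCGEM1 and MEG3, with at most 7 reads in either form. The 6 expressed RNAs stayed higher with NLS after that centring, from 0.11 for OIP5-AS1 to 0.59 for NEAT1.

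Genes past 1.5-fold numbered 186 for ESM1, 113 for ESM1-NLS, 329 for ESM1-NES and 146 between the forms. In that order they were 422, 269, 731 and 384 with a pseudocount of 0.1, 36, 20, 43 and 16 with one of 5, 72, 39, 166 and 47 at a mean of 5 FPKM or more, and 35, 16, 29 and 18 at 2-fold. TPM gave 252 for ESM1-NLS, 894 for ESM1-NES and 522 between the forms. Without a filter ESM1-NLS had 209 and the forms 231. Expected counts scaled to library size gave 533 for ESM1-NES, and Vector-2 as control of ESM1 gave 1867. That control split ESM1 into 500 and 1367 genes higher and lower, beside 146 and 40. Between the forms the split was 100 and 46, beside 80 and 66 after rescaling by the median ratio, 460 and 62 with TPM and 169 and 41 with scaled counts. The cause was not tested. Depth limits PCAT1, PCA3, PCGEM1 and MEG3.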

Other observations

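Other long noncoding RNAs lay on both sides of their vectors. Of 30 listed, 17 passed the filter in ESM1-NES against Vector-2, with 7 higher, 10 lower and 0 past 1.5-fold. DANCR, a host of a small nucleolar RNA with an effective length of 780 bases, had a ratio of 0.854 (0.793 to 0.920) with NLS and 1.21 (1.13 to 1.29) with NES, and of 1.40 (1.26 to 1.56) for ESM1 over Vector-1. GAS5, another such host, had ratios of 0.850 (0.825 to 0.876) with NLS and 1.07 (1.04 to 1.10) with NES. LINC00657, also called NORAD and 5280 bases in effective length, had ratios of 0.992 (0.962 to 1.02) and 0.771 (0.746 to 0.797) for the same forms. GAS5 and LINC00657 were chosen after their values were seen.

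CBR3-AS1, an antisense RNA described in prostate cancer, had 2.14 FPKM with NLS, against 3.83 FPKM with NES, a ratio of 0.559 (0.387 to 0.801). Of these other long noncoding RNAs 18 passed the filter between the forms, and it was the 1 past 1.5-fold. The background there was 0.356% of genes lower and 0.774% higher with NLS. TP53TG1 had a ratio of 1.38 (1.20 to 1.58) and PCAT7 one of 1.74 (1.04 to 2.95) for ESM1 over Vector-1.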
